A study of Mus musculus with 6 samples.

Results

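The mechanistic target of rapamycin (mTOR) complexes and their immediate regulators were examined in RNA precipitated with CPEB1 and sequenced (RIP-seq) from mouse muscle stem cells. The set held 10 of the 55376 genes in the deposited tables and was given as a list of gene names: Mtor, Mlst8, Rptor, Rictor, Akt1s1, Deptor, Rheb, Tsc1, Tsc2 and Rps6kb1. CPEB1 is an RNA-binding protein that recognizes the cytoplasmic polyadenylation element (CPE), a short U-rich motif in the 3′ UTR. RNA immunoprecipitation recovers the RNA bound to a protein with an antibody. The experiment used freshly isolated muscle stem cells (satellite cells, fiSCs), sorted from C57BL/6 mice aged 3 months, and no group carried a mutation or a drug treatment. It gave 6 libraries in 3 groups of 2: RNA precipitated with an anti-CPEB1 antibody (CPEB1 IP), RNA precipitated with a control IgG (IgG), and RNA of the cells without precipitation (input).

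mTOR is a serine/threonine kinase that works in a pair of complexes. mTORC1 contains mTOR, mLST8 and the scaffold Raptor (Rptor), responds to amino acids, growth factors and energy, and drives protein synthesis by phosphorylating S6 kinase (Rps6kb1) and the 4E-BP proteins. mTORC2 contains Rictor in place of Raptor and phosphorylates AKT. PRAS40 (Akt1s1) is an inhibitory subunit of mTORC1, DEPTOR (Deptor) binds and inhibits mTOR in both complexes, the small GTPase RHEB activates mTORC1, and the TSC1-TSC2 complex switches RHEB off. In satellite cells, mTORC1 activity is known for the passage from quiescence towards cell cycle entry.

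CPEs are the letters through which CPEB1 recognizes an mRNA, so the 3′ UTRs of the members were read first. A list of 9 motifs was searched on the sense strand, of which TTTTAT and TTTTAAT are the canonical forms, matches that began at the same base were counted once, and positions are those of the first base of the motif. Of the 10 members, 6 held at least 1 motif in an annotated 3′ UTR (Mtor, Rictor, Deptor, Rheb, Tsc1 and Rps6kb1), where 74.4% of the 10886 genes tested against IgG that had an annotated 3′ UTR did. Rptor, Mlst8, Akt1s1 and Tsc2 held none in any annotated 3′ UTR, and the longest 3′ UTR of each ran to 1925, 2282, 686 and 789 bases. In Mtor the motif lay only in a transcript other than the one with the longest 3′ UTR, so that 5 of 10 members held one when only the longest 3′ UTR of each gene was read, beside 73.1% of the tested genes.

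The canonical CPE nearest to the 3′ end is shown for each of the 5 members that had one in the longest 3′ UTR, because these are the candidate CPEB1 elements next to which the precipitation values can be read. A pair of sites in the Deptor 3′ UTR is added because the bases before the motif were the same in both. Sequences are from GENCODE transcripts of mm10 (GRCm38), 5′ to 3′ on the sense strand, and the capitals mark the CPE.
Deptor, chr15:55258384-55258413, plus strand, 876 bases before the end of the 3′ UTR: gaagggctttttTTTTATtaaaatgaaaac
Deptor, chr15:55254254-55254283, plus strand, 5006 bases before the end: ctgttgttcttgTTTTATtggtctaagagg
Deptor, chr15:55254217-55254246, plus strand, 5043 bases before the end: ctgttgttcttgTTTTATtgatcttatggt
Rheb, chr5:24803391-24803420, minus strand, 586 bases before the end: tatgaccaagaaTTTTATcggcattaattt
Rictor, chr15:6799892-6799921, plus strand, 498 bases before the end: agtggtaaaatcTTTTAATgtatgattgtt
Rps6kb1, chr11:86498980-86499009, minus strand, 127 bases before the end: atagaagtgattTTTTATtacttgagagaa
Tsc1, chr2:28690820-28690849, plus strand, 336 bases before the end: gacatagtttagTTTTATaatcaatcatgg

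Deptor had the most sites, 15 of all motifs and 9 canonical ones over a 3′ UTR of 7136 bases. Rps6kb1 had 10 and 8 over 3854 bases, and Rictor had 7 and 6 over 4165 bases. Tsc1 had only 3 sites over 3994 bases, of which 1 was canonical, and Rheb had 2 over 841 bases, of which 1 was canonical. The number of sites follows the length of a 3′ UTR, so each gene was set beside genes with a 3′ UTR within 20% of its own length: the share with any CPE was 99.3% for Deptor, 97.8% for Rps6kb1, 97.6% for Tsc1, 97.5% for Rictor and 70.8% for Rheb. Sites per kilobase were 2.1 in Deptor (median of like-length genes 2.14), 2.59 in Rps6kb1 (1.89), 1.68 in Rictor (1.87), 0.751 in Tsc1 (1.86) and 2.38 in Rheb (1.32). No member had a canonical CPE within the last 100 bases of its longest 3′ UTR. A match to the motif is a description of the letters and not a measured binding site.

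**Figure D1:**
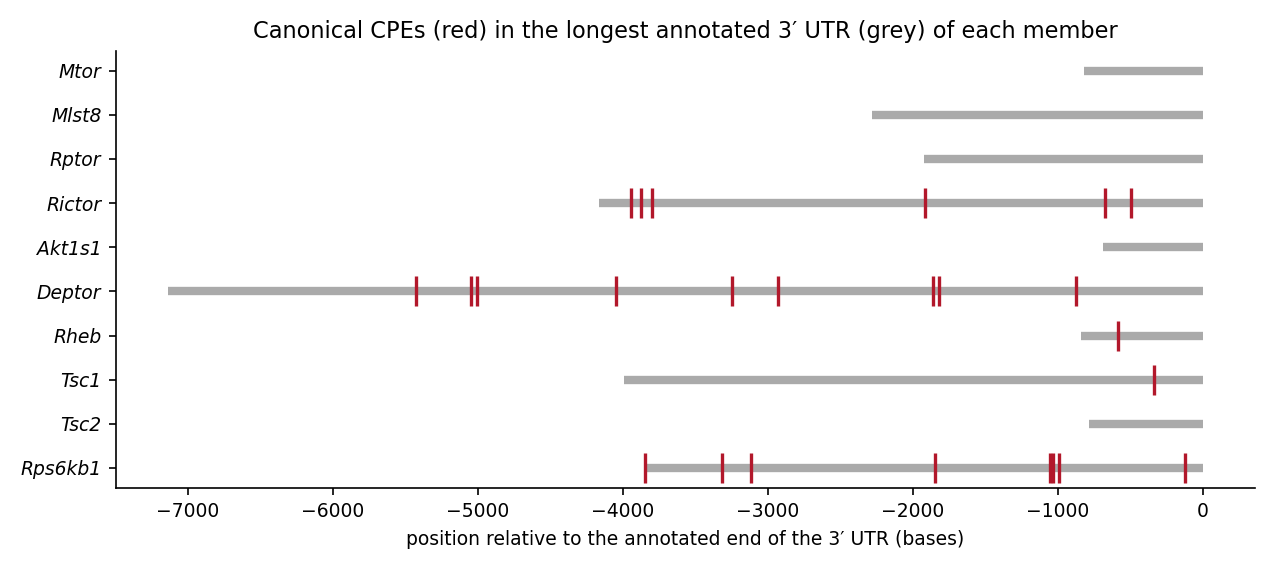
Position of canonical CPEs in the longest annotated 3′ UTR of each member, with the horizontal axis in bases before the annotated end of the 3′ UTR (0 at the right). Grey bars are the 3′ UTRs and red ticks the CPEs. Deptor carried 9, Rps6kb1 8 and Rictor 6, Rheb and Tsc1 carried 1 each, and the other 5 members carried none.

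The libraries differed in how much of their sequence fell on genes. Between 1284716 and 4941653 reads per library were counted on genes, the fewest in IgG, and they made up 39.1% and 39.5% of the library total behind the deposited FPKM (a fragment count scaled by gene length and library total) in IgG but 69.5% to 79.8% in the other libraries. IgG had the most genes detected, 32381 and 32328 against 20158 to 29465 in the other libraries. The sample labels used here name no preparation batch, so a difference in preparation cannot be told apart from one between groups. All 10 satellite cell markers checked, Pax7 and Myod1 among them, were above 1 FPKM in both input libraries, with summed levels of 2727 and 3266 FPKM. The markers of 7 other cell types (endothelial, blood and immune, fibro-adipogenic, smooth muscle and pericyte, tenocyte, Schwann cell and myofibre) summed to between 9.35 and 218.6 FPKM per type in input, and none was at 0 in all libraries. Smooth muscle and pericyte markers summed to 173.1 and 218.6 FPKM in input, 82.7 and 86.1 in CPEB1 IP and 32.8 and 33.7 in IgG. Blood and immune markers summed to 15.2 and 16.5 FPKM in input, 41.1 and 43.1 in IgG and 60.9 and 79.2 in CPEB1 IP. Most of that sum in CPEB1 IP was haemoglobin mRNA (Hba-a1 25.8 and 38.3 FPKM, Hbb-bs 29.8 and 32.2), while the macrophage marker Cd68 was at 4.34 and 7.61 FPKM there against 12.4 and 6.13 in input, and the pan-leukocyte marker Ptprc was at most at 0.471 FPKM in any library. Tenocyte markers summed to 24.8 and 29.0 FPKM in CPEB1 IP against 9.35 and 9.92 in input, fibro-adipogenic markers to 67.3 and 71.2 against 33.5 and 38.3, myofibre markers to 44.2 and 57.3 against 24.5 and 26.5, and Schwann cell markers to 21.3 and 27.4 against 12.2 and 14.7. The part of these markers in the results was not tested. In bulk RNA, fewer cells of a type and less RNA per cell cannot be told apart.

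All 10 members were detected in all 6 libraries, with raw counts from 14 (Mlst8, input replicate 2) to 2194 (Deptor, CPEB1 IP replicate 2). In input, levels per length spanned a wide range. The inhibitor Deptor came first with 42.2 ± 6.60 FPKM (SD, n = 2) and lay at percentile 96.1 of the 23370 genes detected there. The activator Rheb followed with 22.3 ± 2.56 FPKM, then Akt1s1 with 9.85 ± 2.18 and Rps6kb1 with 8.69 ± 0.258 FPKM, which overlapped between libraries. Tsc2 (6.95 ± 0.167 FPKM) stood apart from Rptor (4.16 ± 0.273) and Rictor (3.89 ± 0.538), which overlapped with each other. The lowest levels were those of Mtor (2.29 ± 0.313 FPKM), Tsc1 (2.19 ± 0.565) and Mlst8 (1.43 ± 0.952), neighbours that could not be told apart. The transcripts of the kinase itself and of its shared subunit mLST8 were thus among the least abundant of the set, at percentiles 61.3 and 53.8, and those of DEPTOR and RHEB the most abundant. Deptor and Rheb also held the first 2 ranks in both precipitates, at 33.7 and 24.1 FPKM in CPEB1 IP and at 10.4 and 9.90 FPKM in IgG.

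**Figure D2:**
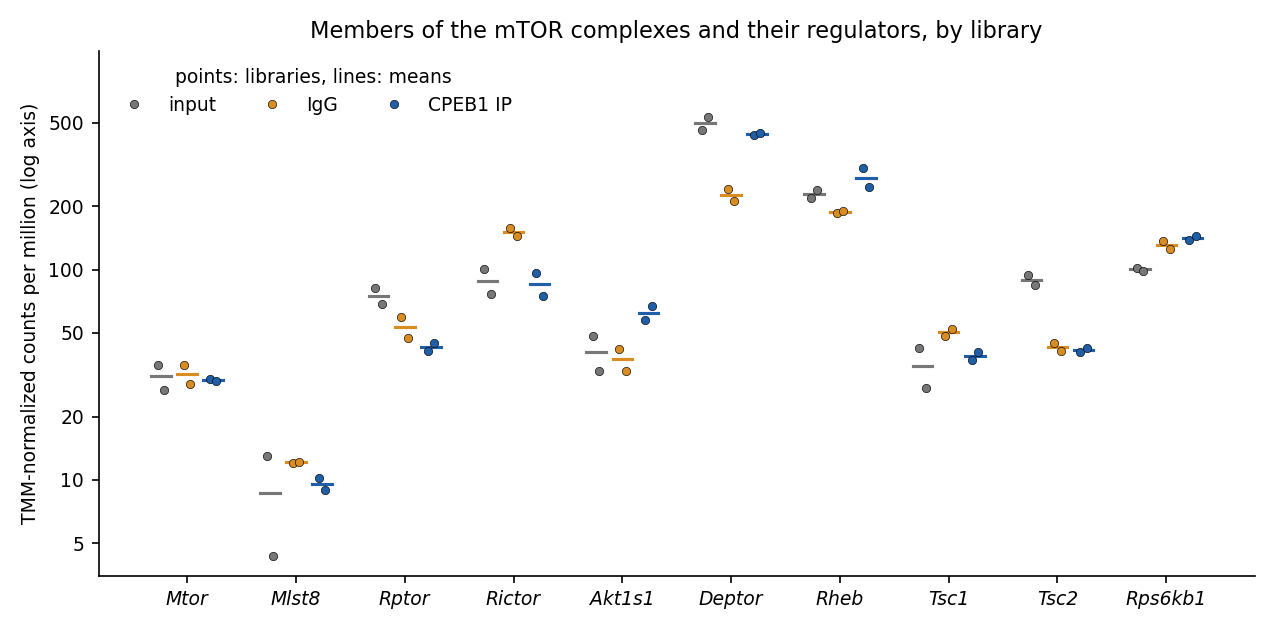
TMM-normalized CPM (counts scaled to library size, log axis) of the 10 members in each library. Points are libraries, horizontal lines the means of the 2 libraries of input (grey), IgG (orange) and CPEB1 IP (blue). Deptor lay at 435 and 446 in CPEB1 IP against 241 and 213 in IgG, Rictor at 95.9 and 75.1 against 158 and 144, and Tsc2 at 94.5 and 84.6 in input against 40.6 to 44.8 in both precipitates.

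CPEB1 IP was first compared with IgG, the contrast that asks which transcripts came down with CPEB1 beyond the background of the precipitation. Transcripts of 3 members were higher in CPEB1 IP: those of the inhibitory subunits Deptor and Akt1s1 and of the activator Rheb. Rictor, the defining subunit of mTORC2, was lower, and the remaining 6, including Mtor, did not pass the threshold. So 3 of 10 members were higher, where 14.7% of the 12124 genes tested were, and 1 of 10 was lower, where 18.7% were (edgeR quasi-likelihood test, Benjamini-Hochberg adjusted p under 0.05). The median log2 fold change of the members was -0.13 and that of all genes tested was -0.01. With DESeq2 the same 4 members were called in the same directions. Replicates were 2 biological experiments per group, so p-values rest on the spread between few libraries.

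CPEB1 IP was next compared with input, which asks whether a transcript was over- or under-represented against the RNA from which the precipitation started. Akt1s1 and Rps6kb1 were higher in CPEB1 IP, and Tsc2 and Rptor were lower. That made 2 of 10 members higher, where 16.3% of the 12171 genes tested were, and 2 lower, where 16.7% were. The member median was 0.06 on the log2 scale and the median of all genes tested was -0.03. Without CPEB1 IP replicate 1 no member stayed past the threshold, and without CPEB1 IP replicate 2 none did either, when only 295 and 18 of all genes were still higher and 211 and 3 lower.

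The control precipitate was also set against input, since it shares its libraries with both comparisons above and shows how the IgG precipitate alone differed from the starting RNA. Rictor was higher in IgG (its sign turned with the FPKM library totals as library size), and Deptor and Tsc2 were lower. That made 1 of 10 members higher, where 21.4% of the 12980 genes tested were, and 2 of 10 lower, where 19.4% were. The member median was -0.05 on the log2 scale and the median of all genes tested was 0.03. Without IgG replicate 1 none of the members stayed past the threshold, nor without IgG replicate 2, and the counts over all genes were then 13 and 9 higher and 11 and 1 lower. Leaving out input replicate 1 raised the log2 fold changes of Mlst8, Rps6kb1 and Tsc1 to 1.49, 0.43 and 0.91. That of Rictor ranged from 0.56 to 1.0 over the fits with 1 library left out.

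**Figure D3:**
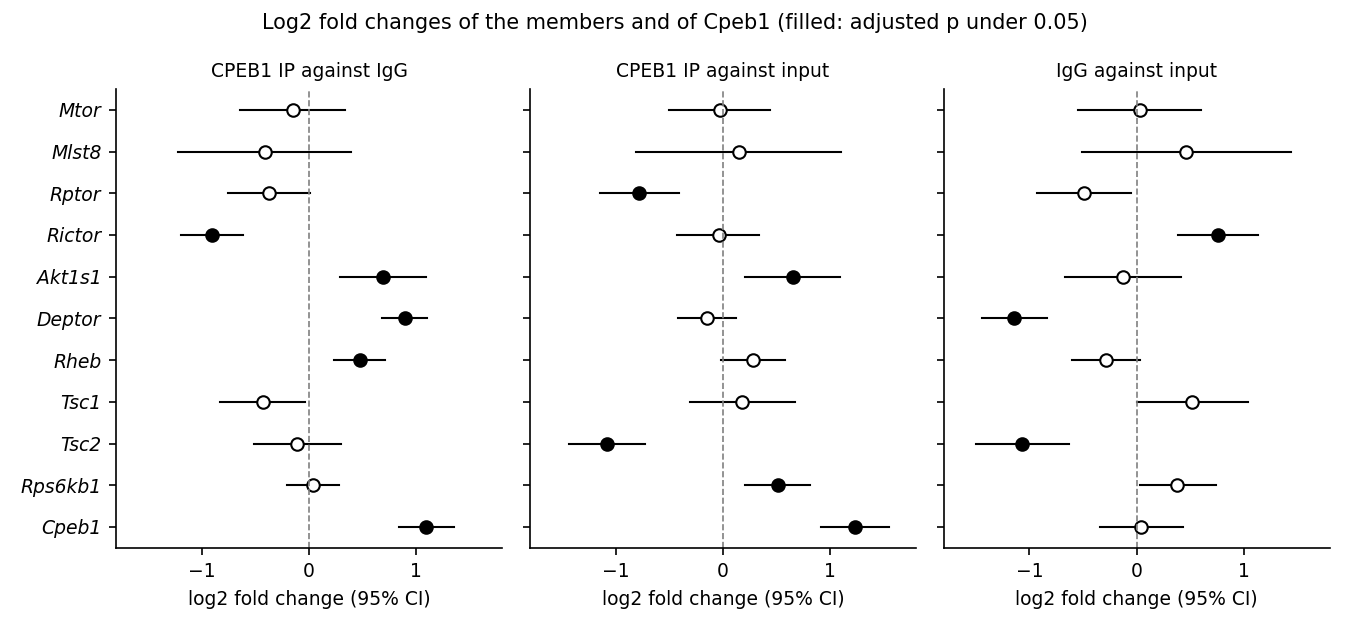
Log2 fold changes of the 10 members and of Cpeb1 in the 3 comparisons, with 95% confidence intervals (edgeR quasi-likelihood test, 2 libraries per group). Filled points had an adjusted p under 0.05. Deptor, Akt1s1 and Rheb lay at 0.89, 0.69 and 0.47 against IgG and Rictor at -0.91. Against input, Deptor lay at -0.15 in CPEB1 IP and at -1.14 in IgG.

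The mRNA of the precipitated protein itself was read as well. Cpeb1 was at 194 and 212 CPM (TMM-normalized counts scaled to the library size) in CPEB1 IP, 88.9 and 93.9 under IgG and 96.0 and 80.8 in input. It was higher in CPEB1 IP by 1.09 ± 0.12 against IgG (log2 fold change ± SE, adjusted p = 2.5e-06) and by 1.23 ± 0.15 against input (adjusted p = 5.54e-05, edgeR). Leaving out CPEB1 IP replicate 2 ended the call against input (1.15, adjusted p = 0.0720). No member reached the log2 fold change of Cpeb1 in either comparison, and few genes did. Cpeb1 lay at percentile 98.7 of the genes tested against IgG and at 95.7 of those tested against input.

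Mtor, the kinase shared by both complexes, is encoded on chr4:148448611-148557683 (mm10, plus strand). It was at 30.3 and 29.6 CPM in CPEB1 IP, 35.1 and 28.7 under IgG and 35.3 and 26.9 in input. The values of all 3 groups overlapped. The log2 fold change was -0.15 against IgG (95% interval -0.64 to 0.33), -0.03 for CPEB1 IP against input (-0.50 to 0.44) and 0.03 for IgG against input (-0.55 to 0.60). None of these passed the threshold. When the library total behind the FPKM replaced the TMM library size, which moved the median of all genes tested from -0.01 to 0.80, Mtor lay at 0.65 against IgG (edgeR adjusted p = 0.0192), below that median. The same totals moved the median of IgG against input from 0.03 to -0.85, and Mtor then lay at -0.84 (adjusted p = 0.0123). Among the 7256 genes with a mean count of at least 50, the profiles over the 6 libraries that lay closest to that of Mtor were those of Arfgap1 and Angel2, with Euclidean distances of 0.114 and 0.143 on the centred log2 scale. Mtor held only 40 to 146 reads per library and its groups overlapped, and how far counting noise set these neighbours was not tested.

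Mlst8, the subunit that binds the kinase domain in both complexes, had the fewest reads of the set. Its level was 10.2 and 8.94 CPM in CPEB1 IP, 12.0 and 12.2 under IgG and 13.0 and 4.34 in input, so the spread within input was wider than any difference between groups. The log2 fold change against IgG was -0.41 with an interval from -1.22 to 0.39, and it was 0.39 with the FPKM library totals (adjusted p = 0.369, edgeR). No change of Mlst8 was detectable at this depth, and 22.5% of the exon bases of the gene (chr17:24473551-24479078) overlapped those of Bricd5 on the other strand, where reads cannot be assigned without strand. Without input replicate 1, Mlst8 was higher in IgG than in input by 1.49 (adjusted p = 0.0413, edgeR), a comparison with input replicate 2 alone, which held 14 reads.

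Rptor, the mTORC1 scaffold that recruits substrates (chr11:119602905-119899576, plus strand), was at 41.0 and 44.7 CPM in CPEB1 IP, 59.8 and 47.3 under IgG and 81.5 and 68.8 in input. Both precipitates lay below input, and both CPEB1 IP libraries lay below both IgG libraries. Rptor was lower in CPEB1 IP than in input, with a log2 fold change of -0.78 ± 0.17 (0.583-fold, adjusted p = 0.00382, edgeR). Against IgG the log2 fold change was -0.37 (interval -0.76 to 0.01, adjusted p = 0.134), and IgG against input gave -0.49 (-0.93 to -0.05, adjusted p = 0.0662). Leaving out CPEB1 IP replicate 1 (adjusted p = 0.140) or replicate 2 (0.130) ended the call against input. Against IgG, Rptor passed the threshold without IgG replicate 2 (-0.53, adjusted p = 0.0488), while its sign turned with the FPKM library totals (0.43, adjusted p = 0.0554). For IgG against input it passed with the FPKM library totals (-1.36, adjusted p = 9.56e-07), without the filter on low counts (-0.76, adjusted p = 0.0276) and without input replicate 2 (-0.63, adjusted p = 0.0239).

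Rictor, which defines mTORC2 and is encoded on chr15:6708379-6800401 (plus strand), was at 95.9 and 75.1 CPM in CPEB1 IP, 158 and 144 under IgG and 101 and 76.5 in input. The IgG libraries stood above all others, and CPEB1 IP overlapped with input. Rictor was lower in CPEB1 IP than in IgG, with a log2 fold change of -0.91 ± 0.14 (0.533-fold, adjusted p = 6.19e-05), and higher in IgG than in input by 0.76 ± 0.18 (1.70-fold, adjusted p = 0.000873, edgeR), while CPEB1 IP against input gave -0.04 (interval -0.43 to 0.34). Both calls moved with the scaling. With the FPKM library totals, by which IgG libraries count more sequence outside genes, Rictor lay at -0.10 against IgG (adjusted p = 0.530) and at -0.11 for IgG against input (adjusted p = 0.666). The first value was below the median of all genes tested under these totals (0.80), and the second was above it (-0.85). The second call was also lost with DESeq2 (0.63, adjusted p = 0.0879), without the filter on low counts (0.50, adjusted p = 0.0821) and on leaving out IgG replicate 1 (0.70, adjusted p = 0.139) or replicate 2 (0.84, adjusted p = 0.102). With 6 canonical CPEs in its 3′ UTR, Rictor was not among the genes higher in CPEB1 IP than in IgG.

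Deptor, the inhibitor of mTOR in both complexes, is encoded on chr15:55112317-55259271 (plus strand). CPEB1 IP gave 435 and 446 CPM, IgG 241 and 213, and input 462 and 534. The IgG libraries stood far below the other 4, and CPEB1 IP lay below both input libraries. Deptor was higher in CPEB1 IP than in IgG by 0.89 ± 0.10 (1.86-fold, adjusted p = 2.57e-06), percentile 97.1 of the genes tested. IgG against input gave -1.14 ± 0.15 (0.455-fold, adjusted p = 1.07e-07), and CPEB1 IP against input gave -0.15 (interval -0.42 to 0.12, adjusted p = 0.381, edgeR). The call against IgG held in all 11 other settings, with log2 fold changes from 0.81 to 1.70. That for IgG against input was lost without IgG replicate 1 (adjusted p = 0.0548) or replicate 2 (0.0596). Overlap with the antisense gene Gm9920 covered 3.41% of its exon bases.

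Akt1s1 (chr7:44848991-44855421, plus strand) encodes PRAS40, the mTORC1 inhibitor that AKT phosphorylates. It was the only member past the threshold as higher in CPEB1 IP against both IgG and input. The CPEB1 IP libraries of Rheb and Rps6kb1 also lay above the other 4. Akt1s1 was at 57.4 and 67.4 CPM in CPEB1 IP, 41.8 and 33.0 under IgG and 48.6 and 32.8 in input. Both CPEB1 IP libraries lay above the other 4, which overlapped. The log2 fold change was 0.69 ± 0.19 against IgG (1.61-fold, adjusted p = 0.00820) and 0.65 ± 0.21 against input (1.57-fold, adjusted p = 0.0272), and -0.13 for IgG against input (interval -0.67 to 0.41, edgeR), which became -0.99 with the FPKM library totals (adjusted p = 0.00153). The call against IgG was lost on leaving out CPEB1 IP replicate 2 (0.55, adjusted p = 0.178) or IgG replicate 2 (0.53, adjusted p = 0.0560). The call against input was lost with DESeq2 (0.64, adjusted p = 0.0922), with the FPKM library totals (0.49, adjusted p = 0.0790) and on leaving out CPEB1 IP replicate 1 (0.78, adjusted p = 0.157), CPEB1 IP replicate 2 (0.51, adjusted p = 0.366) or input replicate 2 (0.41, adjusted p = 0.152), and it rose to 0.99 without input replicate 1. None of the annotated 3′ UTRs of Akt1s1 held a CPE of the 9 forms, and 5.27% of its exon bases overlapped Tbc1d17 or Mir707.

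Rheb, the GTPase that activates mTORC1 at the lysosome (chr5:24802823-24842624, minus strand), was at 303 and 246 CPM in CPEB1 IP, 185 and 191 under IgG and 219 and 239 in input. CPEB1 IP lay above the other libraries, and IgG below them. Against IgG the log2 fold change was 0.47 ± 0.12 (1.38-fold, adjusted p = 0.00363, edgeR), and this call held in all 11 other settings, with values from 0.33 to 1.27. CPEB1 IP against input gave 0.28 (interval -0.02 to 0.58, adjusted p = 0.139), and IgG against input gave -0.29 (-0.60 to 0.03, adjusted p = 0.141). The last value passed the threshold with the FPKM library totals (-1.17, adjusted p = 1.11e-07), without the filter on low counts (-0.56, adjusted p = 0.0203) and without input replicate 1 (-0.32, adjusted p = 0.0460).

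The TSC complex, the brake on RHEB, has a stabilizing and a catalytic subunit. Tsc1, the stabilizing subunit (chr2:28641228-28691167, plus strand), was at 37.3 and 40.4 CPM in CPEB1 IP, 48.6 and 52.3 under IgG and 42.6 and 27.3 in input. The 2 input libraries spanned the CPEB1 IP values, and no comparison passed the threshold: the log2 fold change was -0.43 against IgG (interval -0.83 to -0.04, adjusted p = 0.0842), 0.18 for CPEB1 IP against input (-0.31 to 0.67) and 0.52 for IgG against input (0.00 to 1.04, adjusted p = 0.10). The last became 0.91 without input replicate 1 (adjusted p = 0.0132, edgeR) and 0.59 with all 6 libraries in 1 fit (adjusted p = 0.0482). With the FPKM library totals the signs of the first and the last turned, to 0.38 (adjusted p = 0.0956) and -0.34 (adjusted p = 0.273).

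Tsc2, the subunit with GTPase-activating activity (chr17:24595816-24632630, minus strand), was at 40.6 and 42.4 CPM in CPEB1 IP, 44.8 and 40.9 under IgG and 94.5 and 84.6 in input. Each precipitate library lay below both input libraries, and the precipitates overlapped with each other. Tsc2 was lower than input in both, with a log2 fold change of -1.08 ± 0.16 in CPEB1 IP (0.473-fold, adjusted p = 0.000293) and -1.07 ± 0.22 in IgG (0.478-fold, adjusted p = 0.000124), against -0.11 between the precipitates (interval -0.51 to 0.30, adjusted p = 0.721, edgeR). The call for CPEB1 IP was lost when replicate 1 (adjusted p = 0.0627) or replicate 2 (0.0841) of that group was left out, and that for IgG without IgG replicate 1 (0.0608) or replicate 2 (0.0760). With the FPKM library totals the difference between the precipitates became 0.70 (adjusted p = 0.00396), below the median shift of 0.80 over all genes. Pkd1 shares 7.20% of the exon bases of Tsc2 on the opposite strand.

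Rps6kb1 (chr11:86498871-86544805, minus strand) encodes S6 kinase, the target through which mTORC1 signals to ribosomal protein S6. CPEB1 IP gave 138 and 144 CPM, IgG 137 and 125, and input 102 and 98.8. Both precipitates lay above input and close to each other. Rps6kb1 was higher in CPEB1 IP than in input by 0.51 ± 0.14 (1.42-fold, adjusted p = 0.0129), with 0.38 for IgG against input (interval 0.03 to 0.74, adjusted p = 0.0795) and 0.04 for CPEB1 IP against IgG (-0.21 to 0.28, adjusted p = 0.852, edgeR). With the FPKM library totals the call was lost (0.35, adjusted p = 0.127), as it was when CPEB1 IP replicate 1 (0.139) or replicate 2 (0.223) was left out, and IgG against input passed without input replicate 1 (0.43, adjusted p = 0.0385), with counts on genes as library size (0.44, adjusted p = 0.0427) and with all 6 libraries in 1 fit (0.44, adjusted p = 0.0214). With the FPKM library totals IgG against input turned to -0.49 (adjusted p = 0.0302), and CPEB1 IP against IgG became 0.84 (adjusted p = 2.73e-06), next to the median of 0.80 over all genes. Rps6kb1, which held 8 canonical CPEs, passed the threshold between the precipitates in that setting and in none of the other 10.

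The study's fold criterion, a ratio of CPEB1 IP to IgG above 2, was also read on the deposited FPKM. FPKM + 1 was used on both sides, which pulls the ratios of low genes towards 1. Libraries of the same replicate number were taken as an experiment. Deptor gave 2.76 and 3.37, Akt1s1 2.03 and 3.05, and Rheb 2.49 and 2.11. These 3 members were above 2 in both experiments, as were 14.4% of the 12124 genes tested, and the other 7 lay between 0.923 (Rictor) and 1.83 (Rps6kb1). With FPKM recomputed on TMM library sizes none of the 10 was above 2 in both experiments, as were 0.652% of the genes tested, and Deptor came closest with 1.78 and 2.05. The median ratio over the tested genes was 1.45 and 1.52 on the deposited FPKM and 1.03 in both experiments on TMM library sizes. On both scales the mean ratios of Deptor, Akt1s1 and Rheb were above those of the other 7 members.

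**Figure D4:**
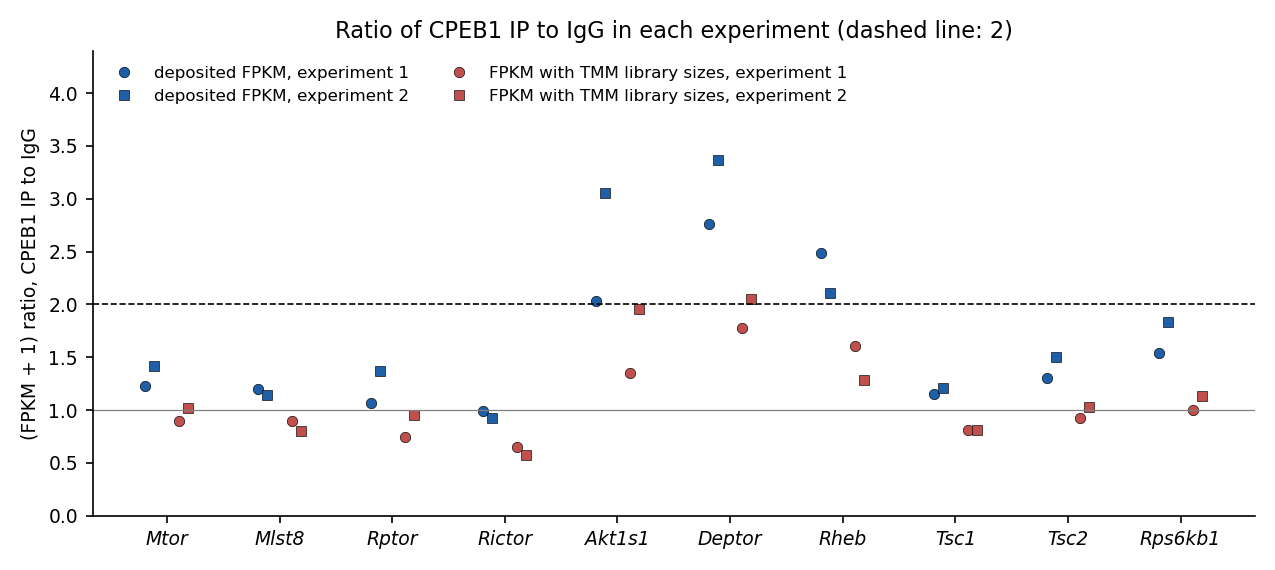
Ratio of CPEB1 IP to IgG, as (FPKM + 1) in each of 2 experiments, for the 10 members. Blue points use the deposited FPKM and red points FPKM recomputed with TMM library sizes, circles and squares are experiments 1 and 2, and the dashed line marks a ratio of 2. Deptor, Akt1s1 and Rheb lay above the line in both experiments only on the deposited scale.

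Around the members, 75 further genes of the pathway in 10 lists were read, from the nutrient sensors upstream to the targets downstream. Against IgG, 69 of them were tested, of which 9 were higher in CPEB1 IP and 10 lower, with a median log2 fold change of 0.07. Without CPEB1 IP replicate 1, CPEB1 IP replicate 2 or IgG replicate 2 the lower genes numbered 4, 2 and 5, and without CPEB1 IP replicate 2 the 1779 genes higher over the whole table fell to 1130. The split moved with the scaling: DESeq2, under which the median of all genes tested was 0.27, called 17 higher and 0 lower, and the FPKM library totals called 46 higher and 0 lower. Over all genes the counts of 1779 higher and 2265 lower became 2619 and 984 with DESeq2, 3513 and 2336 without the filter on low counts (median 0.39) and 7149 and 937 with the FPKM library totals.

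Among the 15 tested mTORC1 and mTORC2 targets, 5 were higher in CPEB1 IP than in IgG and none was lower, where 14.7% of all genes tested were higher and 18.7% lower. These shares are the background of each list against IgG. The 5 targets were Eif4ebp1 (4E-BP1, the translational repressor released by mTORC1 phosphorylation, 0.52 ± 0.09), Eif4b (a cofactor of the eIF4A helicase, 0.48 ± 0.12), Atg13 (a subunit of the ULK1 autophagy complex, 0.56 ± 0.19), Tfe3 (a transcription factor of lysosomal genes, 0.40 ± 0.15) and Maf1 (a repressor of RNA polymerase III, 0.34 ± 0.12). The calls of Eif4ebp1 and Eif4b held in all 11 other settings. Those of Atg13 and Tfe3 were lost without CPEB1 IP replicate 1 (edgeR adjusted p = 0.0890 and 0.172), CPEB1 IP replicate 2 (0.283 and 0.103) or IgG replicate 1 (0.0997 and 0.211), and that of Maf1 without CPEB1 IP replicate 2 (0.298) or IgG replicate 2 (0.332).

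In the insulin, PI3K and AKT input, 2 of 11 tested genes were higher and 4 lower. Irs2 (an insulin receptor substrate, 0.54 ± 0.11) and Akt2 (an AKT kinase, 0.59 ± 0.10) were higher in all 11 other settings too. Among the lower genes were Irs1 (-1.42 ± 0.46), the insulin receptor Insr (-0.82 ± 0.31) and the PI3K regulatory subunit Pik3r1 (-0.73 ± 0.21), the last with a sign that turned under the FPKM library totals, with calls that held in 6, 3 and 6 of the 11 settings. These calls were lost without CPEB1 IP replicate 2 (edgeR adjusted p from 0.103 to 0.269), those of Insr and Pik3r1 also without CPEB1 IP replicate 1 (0.114 and 0.0858), that of Insr without IgG replicate 1 (0.395), and that of Irs1 without IgG replicate 2 (0.405). The replicate number as a block ended the call of Insr (-0.77, adjusted p = 0.0512). Irs1 passed the filter on low counts only through IgG, at 8.97 and 20.1 CPM against 7.79 and 4.26 in CPEB1 IP. DESeq2 did not call it (adjusted p = 0.183).

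Of the nutrient-sensing arm, Lamtor5 (a Ragulator subunit, 0.49 ± 0.18) was the only one of 8 Rag and Ragulator genes past the threshold. In GATOR1 and KICSTOR, which restrain mTORC1, Nprl3 (-1.30 ± 0.33) and Kptn (-0.89 ± 0.28) were lower among 6. In GATOR2, which opposes GATOR1, Sec13 (0.69 ± 0.14) was higher and Wdr59 (-0.78 ± 0.24) lower among 5, the latter with a sign that turned under the FPKM library totals. Of 10 amino acid sensors and folliculin genes, Flcn (-0.59 ± 0.13) and its partner Fnip1 (-0.39 ± 0.13) were lower, and of 7 energy and stress genes the AMPK subunit Prkab2 (-0.29 ± 0.10) was, with signs that turned under the FPKM library totals for all 3 and without the filter on low counts for Fnip1 and Prkab2. Sec13 held in 10 and Flcn in 8 of the 11 other settings, and the others passed the threshold in 5 to 7. For Fnip1 and Prkab2 that count takes in the FPKM library totals, under which they were called higher (0.42 and 0.52, edgeR adjusted p = 0.00721 and 0.000143). The call of Flcn held without any single library. Those of Sec13, Lamtor5, Nprl3, Wdr59, Fnip1 and Prkab2 were lost without CPEB1 IP replicate 2 (edgeR adjusted p = 0.0518, 0.168, 0.0965, 0.171, 0.110 and 0.0652), those of Lamtor5, Kptn, Wdr59, Fnip1 and Prkab2 without CPEB1 IP replicate 1 (0.180, 0.166, 0.0716, 0.0583 and 0.126), that of Kptn without IgG replicate 1 (0.110), and those of Lamtor5, Wdr59, Fnip1 and Prkab2 without IgG replicate 2 (0.131, 0.0523, 0.234 and 0.236). None of the 3 mTORC2-specific subunits, the 3 mTOR assembly factors and the 1 tested gene of the TSC and Rheb list passed the threshold. That gene was Rps6kb2, a relative of the member Rps6kb1 and not of TSC or RHEB.

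Against input, 11 of 70 tested pathway genes were higher in CPEB1 IP and 17 lower, where 16.3% and 16.7% of all genes tested were. Of the 15 targets 5 were higher, Eif4ebp1 (1.41 ± 0.13) among them, and 3 were lower, which were Eef2k (the kinase of elongation factor 2, -1.60 ± 0.31), Tfe3 (-0.58 ± 0.16) and Grb10 (an adaptor that binds the insulin receptor, -0.52 ± 0.14), the last 2 named after their values were seen. Tfe3 thus lay above IgG and below input, and without input replicate 1 the second of these calls was lost (-0.36, edgeR adjusted p = 0.0621). That of Grb10 was lost without input replicate 2 (-0.58, adjusted p = 0.0574). Both mTORC2-specific subunits that were tested were lower, with -1.97 ± 0.21 for Mapkap1 (mSIN1) and -1.15 ± 0.26 for Prr5 (Protor-1). In IgG against input Mapkap1 lay at -1.58 ± 0.27 and Prr5 at -1.44 ± 0.42, and between the precipitates neither passed the threshold. For IgG against input Prr5 passed the filter on low counts only through input, at 14.9 and 3.58 CPM in IgG against 23.5 and 26.3. Among further genes lower in CPEB1 IP than in input were the AMPK subunit Prkab2 (-0.88 ± 0.14), Irs1 (-1.70 ± 0.35) and Pik3r1 (-0.91 ± 0.19), the leucine sensors Sesn1 (-1.02 ± 0.24) and Sesn2 (-0.87 ± 0.16), Depdc5 (-1.03 ± 0.31), the assembly factor Tti1 (-1.20 ± 0.39) and Sec13 (-0.44 ± 0.15). The AMPK subunit Prkaa2 was also called lower, but it passed the filter on low counts only through input, at 5.74 and 7.74 CPM against 2.05 and 0.812 in CPEB1 IP. Of 8 Rag and Ragulator genes 3 were higher, among them Rragc (a Rag GTPase, 1.25 ± 0.23) and Lamtor5 (0.62 ± 0.17). Without CPEB1 IP replicate 2 none of the pathway genes passed, without replicate 1 only 2 were higher and 2 lower, and without input replicate 2 there were 7 and 7. Leaving out input replicate 1 lost the calls of Tti1 (edgeR adjusted p = 0.124) and Depdc5 (0.127). DESeq2 gave 5 higher and 10 lower. It did not call Tti1 (adjusted p = 0.174), Depdc5 (0.109), Sec13 (0.0807) or Lamtor5 (0.0755). Sec13 also fell short with another normalization in edgeR, RLE (-0.42, adjusted p = 0.0502). The FPKM library totals gave 3 higher. Over all genes these totals gave 1235 higher and 2744 lower in place of 1979 and 2037.

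IgG against input gave 6 higher and 19 lower of 71 pathway genes tested, where 21.4% and 19.4% of all genes tested were. Each pair of the 3 comparisons has a group of libraries in common, so their counts are not independent of each other. Prr5l, the mTORC2 subunit Protor-2, was among the higher genes, but it passed the filter on low counts only through IgG, at 5.23 and 5.74 CPM against 0.302 and 0.929 in input, and DESeq2 did not call it (adjusted p = 0.188). Rragc (1.06 ± 0.29) and Wdr59 (0.82 ± 0.30) were also higher, Wdr59 with a sign that turned under the FPKM library totals. Among the lower genes were Mapkap1 (-1.58 ± 0.27), Eef2k (-1.56 ± 0.42), Sesn2 (-1.44 ± 0.24), Sesn1 (-1.23 ± 0.29), Sec13 (-1.22 ± 0.18), Lamtor4 (-1.21 ± 0.44), Prkag1 (-1.18 ± 0.36), Tfe3 (-1.08 ± 0.19), Prkaa1 (-0.91 ± 0.24), Grb10 (-0.86 ± 0.15), Prkab2 (-0.68 ± 0.15) and Akt2 (-0.66 ± 0.15). Tti1 (-1.32 ± 0.52) and Nprl2 (-1.18 ± 0.47) were also called lower, but they passed the filter on low counts only through input. Tti1 lay at 2.99 and 6.45 CPM in IgG against 13.0 and 10.8 in input, and Nprl2 at 12.0 and 3.58 against 12.4 and 22.9. DESeq2 called neither (adjusted p = 0.278 and 0.258). Nor did DESeq2 call Rragc (adjusted p = 0.183), Wdr59 (0.358), Lamtor4 (0.212), Prkag1 (0.126), Eef2k (0.0866) or Prkaa1 (0.0508). Rragc was also not called with the FPKM library totals (0.18, edgeR adjusted p = 0.632). No pathway gene passed without IgG replicate 1 or without IgG replicate 2. The FPKM library totals gave 1 higher and 50 lower, and over all genes 1108 higher and 7180 lower in place of 2772 and 2515, where DESeq2 gave 1004 and 1530.

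**Figure D5:**
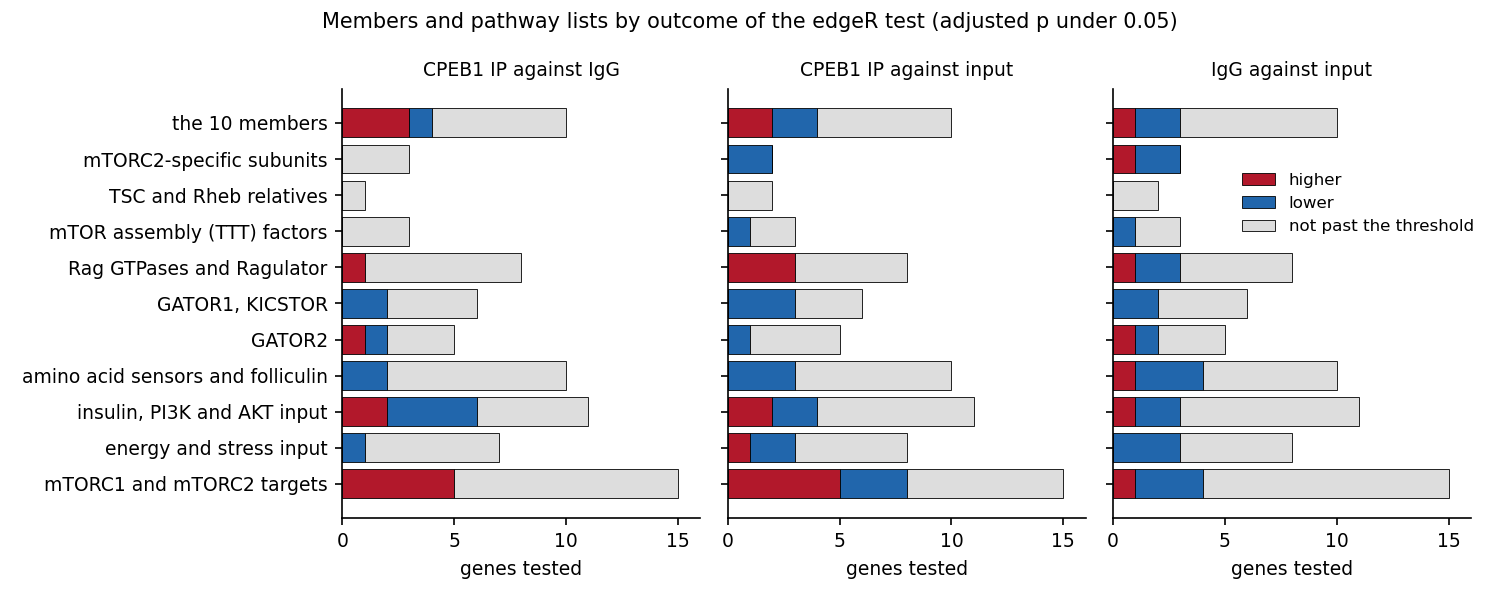
Number of genes tested in each list that were higher (red), lower (blue) or not past the threshold (grey) in each of the 3 comparisons, edgeR adjusted p under 0.05. The horizontal axis counts genes. Of the targets of mTORC1 and mTORC2, 5 of 15 were higher and none lower in CPEB1 IP against IgG. Against input, 5 of them were higher and 3 lower in CPEB1 IP, and 1 was higher and 3 lower in IgG.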

How the data were processed

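Each of the 6 libraries was taken to its group by its labels. Per the labels and the study's methods, RNA libraries were made by SMART-seq2, reads were mapped to mm10 with HISAT and counted on genes with featureCounts, and the authors deposited raw counts without normalization, with summed exon length. The authors also deposited FPKM, scaled by gene length and by a library total larger than the sum over genes. Strand setting, multi-mapping and annotation release are not given in the sources used here.

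Counts were compared for 2 groups at a time in R 4.3.3 with edgeR 4.0.16 (filterByExpr, TMM, quasi-likelihood test, Benjamini-Hochberg adjustment at 0.05 over all genes tested). The study's methods used DESeq2, and DESeq2 1.42.0 was run as an alternative. Each SE was obtained from the log2 fold change and the F statistic (their ratio after taking the root of F). CPM used TMM factors over all 6 libraries, and the FPKM ratio a pseudocount of 1. Fits were tested on simulated counts. The 3′ UTRs, loci and overlaps were read from GENCODE M21 (GRCm38), whose gene starts and ends matched the deposited ones for all 10 members. The CPE forms came from the study's supplementary motif list.

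The members and the lists were chosen with earlier results of these data known. All members were named, with the pathway genes past the threshold against IgG and at most 2 per list with the largest absolute log2 fold change in the other comparisons, except some genes that the rule takes in and that are not reported here. Alternatives were the normalization, the filter on low counts, all 6 libraries in 1 fit, a replicate block, each library left out, the pseudocount and the 3′ UTR rule.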

Additional observations from a re-analysis of the deposited data

How the results depend on the processing

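Counting precision was limited by IgG, the group with the fewest reads on genes, and by 2 libraries per group. Where a library was left out, the lone library of its group was assumed to vary like the others. For the named genes, 484 of the values under the settings that kept all libraries stayed on the same side of the threshold and in the same direction, 59 fell short of it, 9 newly passed and 28 turned in sign. Of the values with 1 library left out, 190 stayed, 124 fell short, 6 newly passed and 12 turned. The cause of each change was not tested.

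With the FPKM library totals, which moved the median of all genes tested to 0.80 (CPEB1 IP against IgG), -0.19 (CPEB1 IP against input) and -0.85 (IgG against input), 6 members were higher and 0 lower in CPEB1 IP against IgG, 0 were higher in CPEB1 IP against input, and 0 were higher and 7 lower in IgG against input. Log2 fold changes that turned under these totals were, against IgG, Mtor 0.65, Rptor 0.43, Mlst8 0.39, Tsc1 0.38, Tsc2 0.70, Prkab2 0.52, Wdr59 0.03, Fnip1 0.42, Flcn 0.22 and Pik3r1 0.08, and, for IgG against input, Mtor -0.84, Rictor -0.11, Mlst8 -0.39, Tsc1 -0.34, Rps6kb1 -0.49, Cpeb1 -0.83 and Wdr59 -0.06. Without the filter on low counts, Mtor (0.25), Rptor (0.03), Tsc2 (0.30), Prkab2 (0.11) and Fnip1 (0.01) turned against IgG, and Mtor (-0.24) and Cpeb1 (-0.22) for IgG against input. DESeq2 turned Mtor (0.13) and Tsc2 (0.18) against IgG, and Mtor (-0.11) and Cpeb1 (-0.09) for IgG against input. Pathway genes under the totals were 46 higher and 0 lower, 3 higher, and 1 higher and 50 lower in the 3 comparisons in the same order, and all genes were 7149 higher and 937 lower, 1235 higher, and 1108 higher and 7180 lower.

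DESeq2 gave 1 member higher in CPEB1 IP against input and 0 higher in IgG against input, pathway genes 17 higher and 0 lower, 5 higher and 10 lower, and 1 higher and 8 lower, and all genes 984 lower against IgG, 1222 higher and 1181 lower against input, and 1004 higher and 1530 lower for IgG against input. Without the filter, 0 members were higher and 4 lower in IgG against input, where 4109 of all genes were higher and 3066 lower. In that setting pathway genes were 26 higher and 0 lower against IgG and 2 higher in IgG against input, and 3513 of all genes were higher against IgG. With all 6 libraries in 1 fit, 3 members were higher in IgG against input, where 3138 of all genes were. Pathway genes were then 5 higher and 6 lower against IgG and 10 higher in IgG against input. With counts on genes as library size, 2 members were higher in IgG against input, where 2978 of all genes were.

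Leaving out each library gave 2 to 3 members higher and 1 to 2 lower in CPEB1 IP against IgG, 0 to 2 higher and 0 to 2 lower in CPEB1 IP against input, and 0 to 4 higher and 0 to 3 lower in IgG against input. Pathway genes ranged over 6 to 9 higher and 2 to 8 lower, 0 to 9 and 0 to 12, and 0 to 7 and 0 to 20. All genes ranged over 1130 to 1601 higher and 1554 to 1929 lower, 18 to 1794 and 3 to 1662, and 9 to 2874 and 1 to 2431. The genes whose sign turned when a library was left out ranged from -0.03 to 0.10 for Rps6kb1 against IgG, over -0.21 to 0.20 for Mtor, -0.23 to 0.18 for Rictor, -0.43 to 1.17 for Mlst8 and -0.09 to 0.57 for Tsc1 for CPEB1 IP against input, and over -0.17 to 0.26 for Mtor, -0.13 to 1.49 for Mlst8, -0.40 to 0.21 for Akt1s1 and -0.10 to 0.20 for Cpeb1 for IgG against input, none of them past the threshold in the fit to all libraries.

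Same-numbered libraries were also fitted with the replicate number as a block. Their deviations from the group means correlated at -0.00277 (CPEB1 IP and IgG), -0.149 (CPEB1 IP and input) and 0.0537 (IgG and input) over 7256 genes. The labels give only the number, the study's methods set CPEB1 IP against IgG within each experiment, and whether the numbers mark those experiments was not tested. The block gave 3 members higher and 1 lower, 2 and 2, and 1 and 2, and all genes 1739 and 2231, 1971 and 2090, and 2777 and 2681. Among named genes it ended 1 call, that of Insr against IgG (-0.77, adjusted p = 0.0512, edgeR).

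Of the FPKM ratios above 2 in both experiments, 3 members remained with a pseudocount of 0.1 and in each experiment alone, 1 with a pseudocount of 5, and 0 on TMM library sizes. The median input level of the members, 5.56 FPKM, was 7.44 with TMM library sizes and 5.40 to 5.71 in single libraries.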
